A study of Rattus norvegicus with 6 samples.

Results

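Of the 867 miRNA sequences counted in circulating exosomes of rat serum, 5 belong to the miR-192, miR-194 and miR-215 group and are described here. They were taken by name (rno-miR-192-5p, rno-miR-192-3p, rno-miR-194-5p, rno-miR-194-3p and rno-miR-215), without use of their values. Exosomes are vesicles shed by cells into blood and other fluids, and small RNA sequencing counts the miRNAs they carry. NXT-Exo (5 libraries, replicates 1 to 5) came from male Sprague-Dawley rats on a normal diet that received Naoxintong Capsule (NXT), a Chinese polyherbal preparation, by gavage at 1000 mg/kg/d. Ctl-Exo (1 library, replicate 5) came from male Sprague-Dawley rats on the same diet that received saline at 5 mL/kg/d. The labels give an age of 6 to 8 weeks for all rats. Dosing lasted 7 days by the titles of all libraries. By the treatment field it differed between libraries, with NXT-Exo 1 at 7 days, NXT-Exo 2 at 8, NXT-Exo 3 at 9, NXT-Exo 4 at 10, and both NXT-Exo 5 and Ctl-Exo 5 at 11. By the labels, each group had 10 rats, 10 mL of blood was drawn per rat, and a total of 110 mL of serum was centrifuged. That total exceeds the blood of 1 rat, but no label says whether a library is 1 rat or pooled serum. The spread between the NXT-Exo libraries may thus be partly or wholly technical. The comparison asked whether dosing with NXT goes with another level of these miRNAs. With 1 Ctl-Exo library this group has no spread of its own, and each test assumes that it varies like NXT-Exo.

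miRNAs are short RNAs that guide the Argonaute proteins to messenger RNAs, mainly through their seed, bases 2 to 8 counted from the 5' end, and lower the output of these messengers. Each is cut from a hairpin precursor whose 5p and 3p arms can both give a mature miRNA, although usually 1 arm dominates. miR-192, miR-194 and miR-215 are known as epithelial miRNAs of the liver, intestine and kidney, they lie in 2 clusters that each also hold a copy of miR-194, and miR-192 and miR-215 have been linked to p53 and to the arrest of the cell cycle.

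The 5 listed sequences are shown first because the shared seed and the arm of origin order the results. They are written as RNA with the seed in capitals.
miR-192-5p: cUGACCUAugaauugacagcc
miR-215: aUGACCUAugauuugacagaca
miR-194-5p: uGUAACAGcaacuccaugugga
miR-192-3p: cUGCCAGUuccauaggucacag
miR-194-3p: cCAGUGGGgcugcuguuaucu
All 5 were identical to the RefSeq mature sequences of the rat assembly GRCr8. miR-192-5p and miR-215 share the seed UGACCUA and 18 of the first 21 bases. They differ by C1A, A12U and C20A, where the base of miR-192-5p stands first, then the position from the 5' end, then the base of miR-215. miR-194-5p, miR-192-3p and miR-194-3p each have a different seed.

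The hairpins show where these sequences come from. They are the RefSeq sequences of GRCr8 on the plus strand, whereas the submitters' processing notes name Rnor_6.0. Capitals mark, on each arm, the exactly matching listed sequence with the most reads.
Mir192, chr1:212994209-212994318: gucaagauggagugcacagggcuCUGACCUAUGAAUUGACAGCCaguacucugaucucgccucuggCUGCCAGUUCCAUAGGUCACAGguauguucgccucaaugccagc
Mir194-2, chr1:212994024-212994108: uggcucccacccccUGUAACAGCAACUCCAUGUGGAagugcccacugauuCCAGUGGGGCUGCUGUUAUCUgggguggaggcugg
Mir215, chr13:99382990-99383086: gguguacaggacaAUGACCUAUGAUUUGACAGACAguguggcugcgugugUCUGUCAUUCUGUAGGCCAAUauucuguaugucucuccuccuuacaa
Mir194-1, chr13:99382716-99382798: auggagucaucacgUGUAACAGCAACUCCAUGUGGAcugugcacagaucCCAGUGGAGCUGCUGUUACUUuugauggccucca
In the RefSeq gene list of GRCr8, Mir194-2 and Mir192 are neighbours between Atg2a and Ehd1, and no listed gene spans them. Mir194-1 and Mir215 are neighbours within the span of Iars2, the gene of the mitochondrial isoleucyl-tRNA synthetase. The 5p arms of Mir194-1 and Mir194-2 are identical, so reads of miR-194-5p cannot be assigned to either cluster, while their 3p arms differ by 3 bases.

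The NXT-Exo libraries held 1168686 to 3781718 listed reads and the Ctl-Exo 5 library 1890463. Levels are given in CPM, which are reads scaled to a common library size with edgeR's TMM factors. A single read equalled between 0.261 and 0.782 CPM in the NXT-Exo libraries, and 0.544 CPM in the Ctl-Exo 5 library. A count of 3 reads was taken as the floor of detection, which is 1.63 CPM in Ctl-Exo 5. All intervals of single libraries are Wilson 95% intervals and cover counting error only. The upper limits given for 0 reads are instead set at the floor of 3 reads. Ligation and amplification can favour some sequences, so an order of miRNAs is an order of reads and not of molecules. These small RNA counts hold no defining marker by which the label of exosomes could be checked.

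miR-192-5p, the most abundant member, was measured with 20852, 27347, 15937, 10903 and 25072 reads in NXT-Exo 1 to 5 and 9905 in Ctl-Exo 5. Its level was 6952, 8236, 7165, 8523 and 6539 CPM in NXT-Exo 1 to 5 and 5393 CPM in Ctl-Exo 5. All 5 NXT-Exo libraries thus lay above Ctl-Exo 5, and above the upper end of its interval (5288 to 5500 CPM). The NXT-Exo mean was 7483 ± 855 CPM (SD, n = 5), 1.39-fold the Ctl-Exo 5 level. On the log2 scale the difference was 0.47 with an SE of 0.23 and a 95% interval of -0.02 to 0.97, and it did not pass the test (adjusted p = 0.776, edgeR's quasi-likelihood test over 736 miRNAs).

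miR-215, which carries the same seed, was at 4274, 6345, 5589, 5732 and 4754 CPM in NXT-Exo 1 to 5 and 4107 CPM in Ctl-Exo 5, with an interval of 4015 to 4200 CPM. NXT-Exo 1 was close to Ctl-Exo 5 and the other 4 NXT-Exo libraries were farther above it, so the ranges did not overlap. The mean of 5339 ± 823 CPM (SD, n = 5) was 1.30-fold that in the control library. On the log2 scale this is a difference of 0.38, with an SE of 0.25 and an interval of -0.14 to 0.90, and it did not pass the test (adjusted p = 0.776, edgeR).

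miR-194-5p was far less abundant, with 135, 118, 107, 80 and 163 reads in NXT-Exo 1 to 5 and 81 in Ctl-Exo 5. Its level was 45.0, 35.5, 48.1, 62.5 and 42.5 CPM in NXT-Exo 1 to 5 against 44.1 CPM in Ctl-Exo 5, whose interval was 35.5 to 54.8 CPM. Ctl-Exo 5 lay inside the NXT-Exo range, with 3 libraries above it and 2 below. The mean was 46.7 ± 9.97 CPM (SD, n = 5), and the log2 difference was 0.07 with an SE of 0.36 and an interval of -0.70 to 0.84 (adjusted p = 0.959, edgeR). Without NXT-Exo 4 the difference became -0.05, so its sign rests on 1 library.

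**Figure D1:**
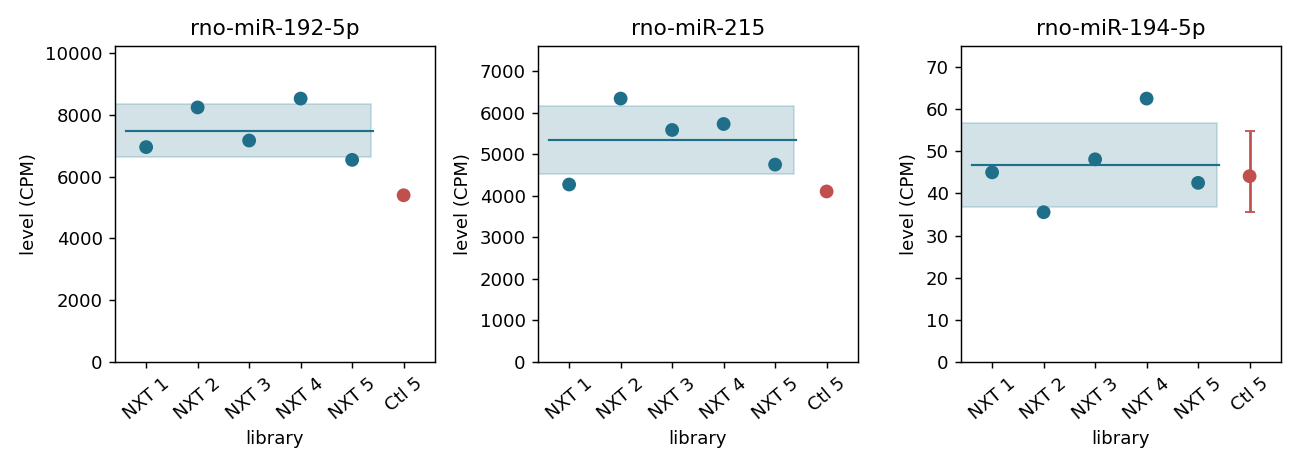
Level in CPM (vertical axis, from 0) of miR-192-5p, miR-215 and miR-194-5p in each library (horizontal axis). Blue points are NXT-Exo 1 to 5 with their mean and SD as line and band, and the red point is Ctl-Exo 5 with its Wilson 95% interval. Ctl-Exo 5 is the lowest of the 6 points for miR-192-5p (5393 CPM) and miR-215 (4107 CPM) and lies among the NXT-Exo points for miR-194-5p (44.1 CPM).

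The 3p members were near or under the floor. miR-192-3p had 1, 9, 1, 0 and 0 reads in NXT-Exo 1 to 5 and 0 in Ctl-Exo 5. miR-194-3p had 2, 8, 0, 0 and 6 reads in NXT-Exo 1 to 5 and 0 in Ctl-Exo 5. Only NXT-Exo 2 for miR-192-3p, and NXT-Exo 2 and 5 for miR-194-3p, exceeded 3 reads. The 0 reads of Ctl-Exo 5 allow a level of up to 1.63 CPM, above the NXT-Exo means of 0.699 ± 1.14 CPM and 0.928 ± 1.05 CPM (SD, n = 5), so no difference was detectable at this depth and no fold is given. Both passed the minimum of 10 reads through NXT-Exo alone, so their test says nothing and its p is not given.

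The members' values were read against those of all miRNAs. At an adjusted p under 0.05, edgeR called 0 of the 3 members with reads in Ctl-Exo 5 and 0.0% of the 736 miRNAs with at least 10 reads in all. At an unadjusted p under 0.05 it counted 0 of these 3 members and 40 miRNAs (5.43%, or 3.67% counting those higher in NXT-Exo), and DESeq2 called 0 miRNAs after adjustment and counted 34 before it. Over 12 other settings of the fit the unadjusted p fell under 0.05 in 3 for miR-192-5p (lowest 0.025) and in 1 for miR-215 (0.046), by edgeR, DESeq2 or limma. None of the 3 members was at least 2-fold apart with Ctl-Exo 5 outside the NXT-Exo range, against 11.4% of the 865 miRNAs with reads (5.32% higher and 6.13% lower in NXT-Exo). That background of 99 miRNAs was 4 with a pseudocount of 10 CPM and 30 among the 467 miRNAs whose mean was 10 reads or more. The 3p members could not meet this rule, since some NXT-Exo libraries had 0 reads like Ctl-Exo 5. For 2 of the 5 members, miR-192-5p and miR-215, the control library was the lowest of the 6, against 15.0% of the 865 miRNAs, and 21.6% of the 467 whose mean was 10 reads or more. It was the highest of the 6 for 0 members and 15.3% of miRNAs. In counts simulated at the spread of these libraries, the test called 59.9% of the miRNAs changed 2-fold and 99.5% of those changed 4-fold, among those averaging 100 CPM or more. Each of the 20 simulated tables had 200 of 736 miRNAs changed, by 2- to 32-fold. So many changes loosen the adjusted threshold, and these shares may be too high for a table with few changes. Smaller folds, such as those of miR-192-5p and miR-215, were not simulated. The simulated Ctl-Exo 5 was given the spread of NXT-Exo, and simulated miRNAs with any reads were tested without the minimum of 10 reads.

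**Figure D2:**
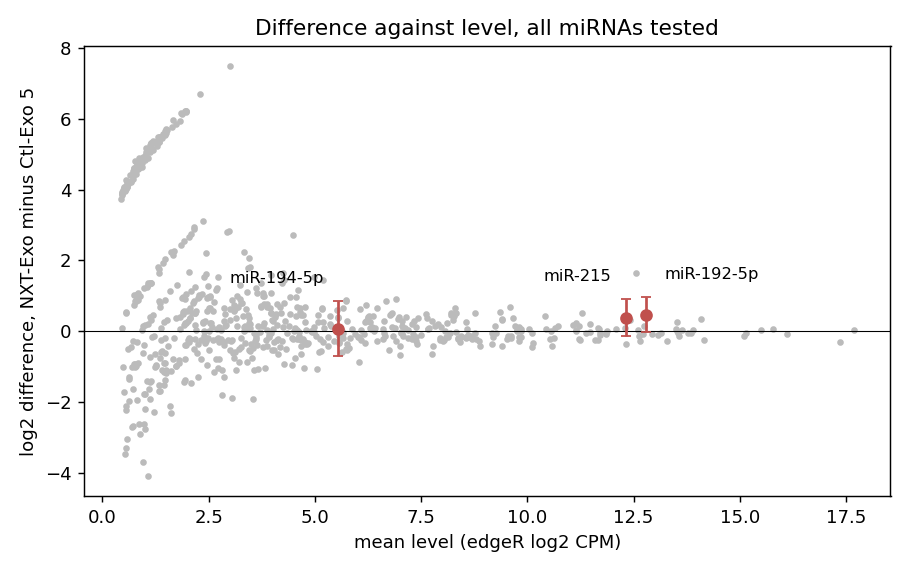
Log2 difference between NXT-Exo and Ctl-Exo 5 (vertical axis) against mean level as log2 CPM (horizontal axis), both fitted by edgeR, for 736 miRNAs (grey). miR-192-5p, miR-215 and miR-194-5p are in red with 95% intervals, each of which includes 0, and the grey arc at the upper left consists of miRNAs with 0 reads in Ctl-Exo 5, whose values depend on the prior count.

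Together the 5 members made up 1.16%, 1.41%, 1.19%, 1.57% and 1.15% of the listed reads in NXT-Exo 1 to 5 and 0.927% (interval 0.914% to 0.941%) in Ctl-Exo 5. Over the 6 libraries they had 190145 reads, of which miR-192-5p gave 57.9%, miR-215 41.8% and miR-194-5p 0.360%. By reads, miR-192-5p ranked 20 to 29 among all miRNAs and miR-215 ranked 27 to 35, whereas miR-194-5p ranked 198 to 233. In every library the order was miR-192-5p, miR-215, miR-194-5p. The listed sequences with the seed UGACCUA numbered 4 and had 196498 reads, and those with the miR-194-5p seed GUAACAG numbered 2 and had 690 reads.

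Ratios of members within a library do not depend on how the library was scaled. miR-192-5p exceeded miR-215 1.63-, 1.30-, 1.28-, 1.49- and 1.38-fold in reads in NXT-Exo 1 to 5 and 1.31-fold in Ctl-Exo 5, with an interval of 1.27 to 1.35 in the latter. The ratio of Ctl-Exo 5 was inside the NXT-Exo range, and it was highest in NXT-Exo 1, where miR-215 was lowest among NXT-Exo. The difference of the mean log2 ratio was 0.10, and the SD over NXT-Exo was 0.14.

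miR-192-5p exceeded miR-194-5p by far, although both have a gene in the Mir194-2 and Mir192 cluster. The ratio of reads was 154, 232, 149, 136 and 154 in NXT-Exo 1 to 5 and 122 in Ctl-Exo 5. Ctl-Exo 5 had the lowest ratio, but its interval of 98.3 to 152 included the ratios of NXT-Exo 3 and 4, and the 81 reads of miR-194-5p set its width. The log2 ratio was higher in NXT-Exo by 0.41, against an SD of 0.30, and by 0.28 without NXT-Exo 2. An exact permutation test of 5 libraries against 1 cannot give a p below 0.167, so none is given for the ratios. The reads of miR-215 exceeded those of miR-194-5p 91.7- to 179-fold in NXT-Exo and 93.1-fold in Ctl-Exo 5, which lay inside the range.

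**Figure D3:**
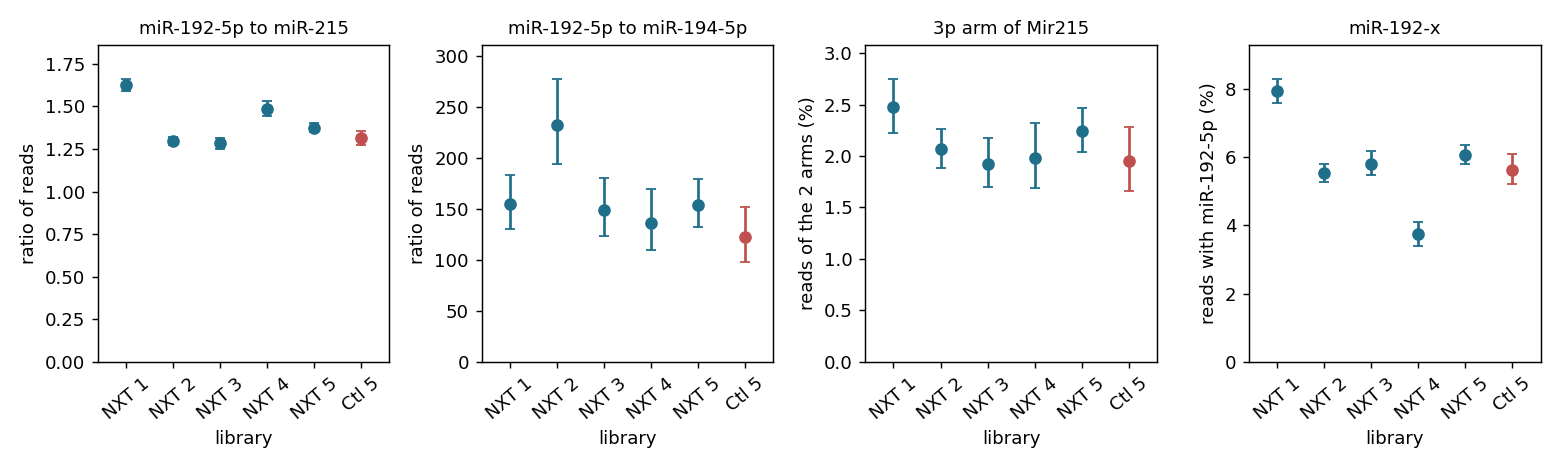
Ratios of reads and shares of reads in percent by library, 1 measure per panel, with vertical axes from 0 and Wilson 95% intervals as bars, NXT-Exo in blue and Ctl-Exo 5 in red. The ratio of miR-192-5p to miR-194-5p peaks in NXT-Exo 2 (232), the 3p share of Mir215 stays between 1.93% and 2.47%, and the share of miR-192-x spans 3.74% in NXT-Exo 4 to 7.94% in NXT-Exo 1.

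The table also lists 7 sequences named miR-192, miR-194 or miR-215 without the rat prefix, and they show the arms and ends that the 5 members leave out. The 4 shown, with bases 2 to 8 in capitals, are the 3 with the most reads and miR-194-y, which tells the 3p arm of Mir194-1 from that of Mir194-2.
miR-215-y: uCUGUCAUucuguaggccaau
miR-192-x: cUGACCUAugaauugacagccau
miR-215-x: uGACCUAUgaauugacagccaa
miR-194-y: cCAGUGGAgcugcuguuacuu
miR-215-y matched the 3p arm of Mir215 exactly. It was at 108, 134, 110, 116 and 109 CPM in NXT-Exo 1 to 5 and 81.7 CPM in Ctl-Exo 5, so all NXT-Exo libraries were above Ctl-Exo 5 (interval 69.6 to 95.8 CPM). The log2 difference of 0.50 had an SE of 0.27 and did not pass the test (adjusted p = 0.776, edgeR). With 1729 reads over the 6 libraries against 684, the 3p arm of Mir215 was read more often than miR-194-5p, and it was so in all 6 libraries.

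The share of the 3p arm differed between the hairpins. For Mir215 it was 2.47%, 2.06%, 1.93%, 1.98% and 2.24% of the reads of both arms in NXT-Exo 1 to 5 and 1.95% (interval 1.66% to 2.28%) in Ctl-Exo 5, which lay inside the NXT-Exo range. For Mir192 it was 11 of 110027 reads over the 6 libraries, with an interval of 0.00558% to 0.0179%, and the 0 of 9905 reads in Ctl-Exo 5 allow a share of up to 0.0303%. The 2 hairpins with the same 5p seed thus differed in their 3p share in each library. For Mir192 the highest Wilson upper bound in a single library was 0.0625%. For miR-194, miR-194-3p gave 2.29% of the reads of miR-194-5p and miR-194-3p over the 6 libraries (interval 1.41% to 3.68%). This value sets the 3p reads of Mir194-2 alone against the 5p reads of both miR-194 hairpins. It leaves out the 3p reads of Mir194-1 given below, so the 3p share of the 2 hairpins together is higher. It is therefore not like the share of Mir215.

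The 3p reads of miR-194 came from both clusters. miR-194-3p matches Mir194-2 exactly and had 16 reads over the 6 libraries, and miR-194-y matches Mir194-1 exactly and had 11. A predicted miRNA of the table also matches the 3p arm of Mir194-1 exactly, with 1 base more at its 3' end, and had 9 reads. In Ctl-Exo 5, miR-194-y had 0 reads and the predicted miRNA 2.

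**Figure D4:**
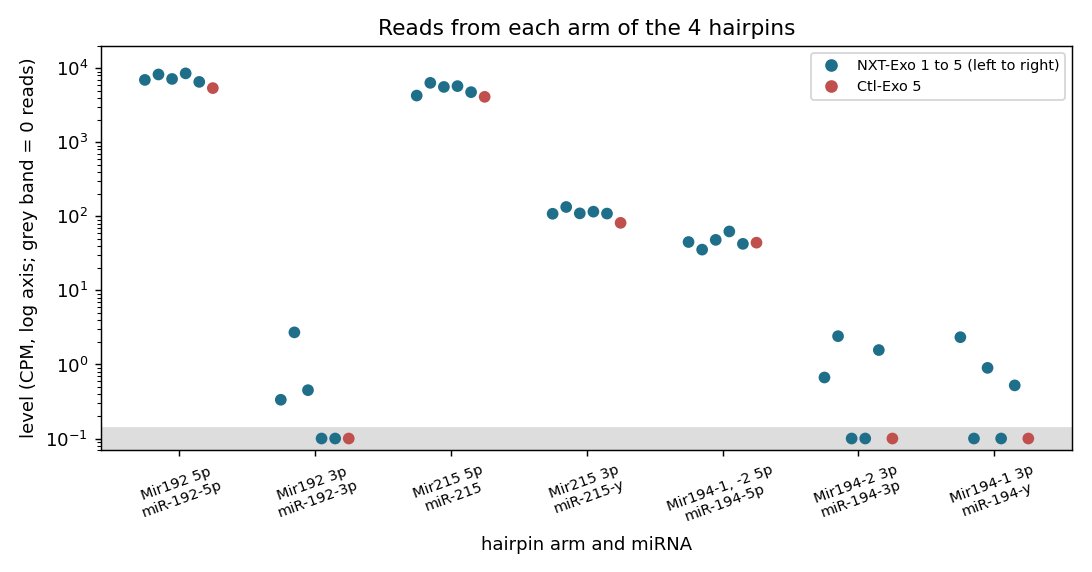
Level in CPM (vertical log axis) of the sequences from each arm of the 4 hairpins (horizontal axis), with NXT-Exo 1 to 5 in blue from left to right and Ctl-Exo 5 in red, and 0 reads drawn in the grey band. The 5p arms of Mir192 and Mir215 lie near each other, the 3p arm of Mir215 lies above miR-194-5p in all 6 libraries, and the 3p arms of Mir192 and of both miR-194 hairpins are at or under 2.71 CPM.

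miR-192-x is miR-192-5p with 2 more bases at the 3' end, of which the last differs from Mir192 (G23U, hairpin base first, position counted from the 5' end of the listed sequence). It was at 600, 483, 442, 331 and 422 CPM in NXT-Exo 1 to 5 and 322 CPM in Ctl-Exo 5, below all NXT-Exo libraries, although NXT-Exo 4 was inside the interval of Ctl-Exo 5 (297 to 349 CPM). Its log2 difference was 0.50 with an SE of 0.28 (adjusted p = 0.776, edgeR). Of the reads of miR-192-5p and miR-192-x, miR-192-x made up 7.94%, 5.54%, 5.81%, 3.74% and 6.07% in NXT-Exo 1 to 5 and 5.63% in Ctl-Exo 5. NXT-Exo 1 and 4 stood apart on either side, and their intervals (7.60% to 8.30% and 3.41% to 4.11%) did not overlap those of the other libraries.

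miR-215-x carries the miR-215 name, but it was nearer to Mir192, from which it differed at 1 base (G22A), than to Mir215, from which it differed at 3. It starts 1 base later than miR-192-5p, so its bases 2 to 8 are GACCUAU and not the seed of the members. Its reads numbered 29, 15, 13, 3 and 30 over NXT-Exo 1 to 5, and 14 in the control library. miR-192-z had 45 reads, miR-215-z 17 and miR-194-x 6 over the 6 libraries, and no difference was detectable for them at this depth.

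Other miRNAs known from liver, gut, kidney and blood cells were set beside the members. These lists were chosen with earlier results of these data known, so their counts are a description and not evidence of a tissue of origin. Of 10 listed miRNAs of gut epithelium, Ctl-Exo 5 was below all NXT-Exo libraries for 6 and above all for 1, against 15.0% and 15.3% of all miRNAs, and the 6 were 5 when scaled to the listed total. For the 9 of them that averaged 10 reads or more, the matching share of all such miRNAs with Ctl-Exo 5 below is 21.6%. Their median log2 difference was 0.36, and that of the 548 tested miRNAs with over 3 reads in Ctl-Exo 5 was -0.03. None passed the test after adjustment, and 2 of the 10 had an unadjusted p under 0.05. miR-375-3p, known from enteroendocrine and pancreatic islet cells, was at 822, 881, 786, 735 and 895 CPM in NXT-Exo 1 to 5 and 516 CPM in Ctl-Exo 5 (log2 difference 0.68, adjusted p = 0.776, edgeR). miR-31a-5p, found in epithelia, was at 11.0, 21.1, 22.5, 28.9 and 20.6 CPM against 6.53 CPM (log2 difference 1.65, adjusted p = 0.776, edgeR). The other 4 of the 6 were miR-200a-3p, miR-200c-3p, miR-141-3p and miR-203a-3p, with log2 differences of 0.29, 0.63, 0.43 and 0.45. Of the remaining 4, miR-147 was at 0.899 to 1.56 CPM in NXT-Exo, below the 4.36 CPM of Ctl-Exo 5 (log2 difference -1.69), and Ctl-Exo 5 was inside the NXT-Exo range for miR-200b-3p (0.11), miR-429 (-0.45) and miR-203b-3p (-0.52).

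Hepatocyte miRNAs are known from the main cell type of the liver. Of the 8 miRNAs found, 6 had over 3 reads in Ctl-Exo 5, with a median log2 difference of -0.0026, and the control library was the lowest of the 6 for 1 of the 8, miR-122-5p. Over all 8 the fitted median was 0.70, but miR-802-5p and miR-33-5p had 0 reads in Ctl-Exo 5. With miR-802-5p at its lower bound and miR-33-5p, under the floor in both groups, left out, the median was 0.03. miR-122-5p and miR-122-3p, from the 2 arms of the hepatocyte hairpin, had log2 differences of 1.64 and 1.37, larger than those of the members, and miR-122-5p was the 1 miRNA of the list with an unadjusted p under 0.05 (adjusted p = 0.776, edgeR). miR-148a-3p, abundant in liver and other secretory tissues, was 15199 ± 1357 CPM (SD, n = 5) in NXT-Exo with a log2 difference of 0.03. The ratio of the hepatocyte miRNA miR-122-5p to miR-192-5p was 2.50, 0.400, 0.518, 0.396 and 0.983 in NXT-Exo 1 to 5 and 0.407 in Ctl-Exo 5, so the high miR-122-5p of NXT-Exo 1 was not matched by miR-192-5p.

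For 7 kidney tubule miRNAs, Ctl-Exo 5 was below all NXT-Exo libraries for 0, and the median log2 difference was -0.12 over the 6 with over 3 reads in Ctl-Exo 5. The miRNA left out, miR-204-5p, was at 0.899 to 17.5 CPM in NXT-Exo and 1.09 CPM, under the floor, in Ctl-Exo 5. With miR-204-5p at its lower bound the median was -0.04. Of 7 red blood cell miRNAs, Ctl-Exo 5 was below all for 0 and above all for 1 (0 or 2 under the other scalings). Their median was 0.03, and their summed level ranged from 231880 to 321955 CPM over NXT-Exo, against 268984 CPM in the control library. Of 9 miRNAs of white blood cells and platelets, Ctl-Exo 5 was above all NXT-Exo libraries for 3 and below all for 0. The 3 were 2 when scaled to the listed total, and of all miRNAs Ctl-Exo 5 was above for 15.3% and below for 15.0%. The median of the 9 was -0.20, and their summed level ranged from 30914 to 35594 CPM over NXT-Exo, against 37414 CPM in the control library. In CPM, Ctl-Exo 5 thus had the highest summed level of miRNAs of white blood cells and platelets and the lowest levels of miR-192-5p and miR-215. The highest sum rests on the TMM factors, 0.971 for Ctl-Exo 5 and 1.09 for NXT-Exo 4. Scaled to the listed total, the sum of NXT-Exo 4 is above that of Ctl-Exo 5. Within NXT-Exo, however, NXT-Exo 4 had the highest summed level (35594 CPM) and also the highest miR-192-5p (8523 CPM). A link between these levels was not tested. In all 5 lists 0 miRNAs were called by edgeR.

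**Figure D5:**
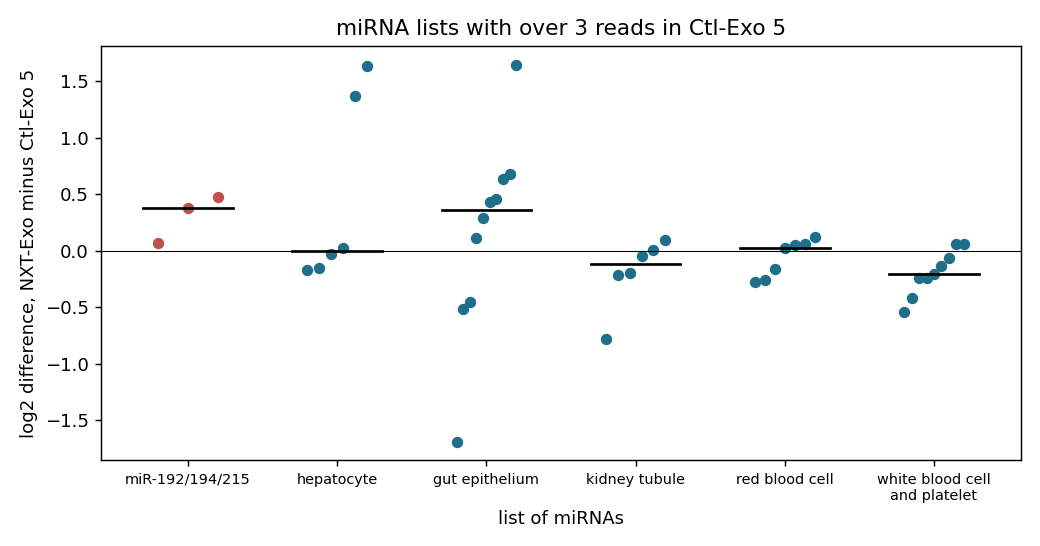
Log2 difference between NXT-Exo and Ctl-Exo 5 (vertical axis) of miR-192-5p, miR-215 and miR-194-5p (red) and of the miRNAs of 5 lists (blue) with over 3 reads in Ctl-Exo 5, with medians as black lines. The gut epithelium list has its median at 0.36, and the medians of the hepatocyte, kidney tubule, red blood cell and white blood cell and platelet lists lie between -0.20 and 0.03.

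The miRNAs whose pattern over the 6 libraries was most like that of miR-192-5p were found by the SD of the log2 ratio of reads, which is small where 2 miRNAs keep 1 proportion. Among 226 miRNAs that averaged 100 reads or more they were miR-127-3p (SD 0.073), miR-182 (0.094) and miR-183-5p (0.094), against a median SD of 0.34. miR-215 had an SD of 0.13 and would rank 9, and miR-194-5p had an SD of 0.31 and would rank 89. For miR-194-5p the nearest were miR-652-3p (0.12), miR-24-2-5p (0.13) and miR-1260-z (0.14), while miR-192-5p would rank 81 and miR-215 would rank 118. These values describe the 6 libraries. Counting error adds to them, most of all for miRNAs with few reads, such as miR-194-5p with 80 to 163 reads. It also weighs more on miR-127-3p (mean 316 reads) than on miR-215 (mean 13236 reads), and the order of these SDs was not tested.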

How the data were processed

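Small RNA of serum exosomes was sequenced on an Illumina HiSeq 2500 from TruSeq libraries. The authors filtered the reads with ACGT101-miR and deposited unnormalized counts for each miRNA sequence. They also deposited TPM values, which are the counts times a constant per library, with 0 reads written as 0.01. The aligner and the miRNA database release are not given in the sources used here. The table has 8 further per-sample columns, the counts and TPM of libraries named Ctl-Exo 1 to 4. They match no sample label given here and were not used, so Ctl-Exo is 1 library.

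The members and lists were chosen with earlier results of these data known, and the sequences without the rat prefix were described in detail after their values were seen. Counts were scaled with TMM over the 865 miRNAs with reads and tested with edgeR 4.0.16 (quasi-likelihood, Benjamini-Hochberg) over the 736 with at least 10 reads in all. DESeq2 1.42.0, limma 3.58.1 (on log2 of the deposited TPM + 1), R 4.3.3, Python 3.11.15 and scipy 1.17.1 served the alternatives and ratios. SEs were derived from the F statistic. In ratios on the log2 scale 0.5 was added to each count. The 2-fold rule used log2 of the mean CPM + 1. Sequences were placed on the 4 RefSeq hairpins without gaps, with up to 3 mismatches. The test was tested on simulated data for 736 miRNAs, where it called 0.326% of unchanged miRNAs. The named miRNAs are the members, sequences of the same name or seed, list miRNAs that were called or abundant, and the 3 nearest to miR-192-5p and miR-194-5p. The gut list miRNAs and the predicted miRNA were named after their values were seen.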

Additional observations from a re-analysis of the deposited data

Results flagged for a closer look

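Of 9 sets of values over the NXT-Exo libraries that were screened, 2 contained a value that stood apart. About 1 in 20 such sets would do so by chance.

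For miR-192-3p it was NXT-Exo 2, with 9 reads (2.71 CPM) where the other NXT-Exo libraries had 0 to 1. The distance to the nearest library was 0.834 of the whole range, and the critical value is 0.71.

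For the log2 ratio of miR-192-5p to miR-194-5p it was again NXT-Exo 2, at 7.85, while the others were at 7.08 to 7.27. The distance was 0.760 of the whole range. miR-194-5p was lowest in this library (35.5 CPM) and miR-192-5p was at 8236 CPM.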

How the results depend on the processing

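No paired analysis was possible because only replicate 5 occurs in both groups. The number of miRNAs called was 0 under all 12 alternatives, with 24 to 51 at an unadjusted p under 0.05. The log2 difference of miR-192-5p was 0.42 to 0.55 and that of miR-215 was 0.31 to 0.45 over 12 alternatives each, with adjusted p from 0.640 to 0.943 and from 0.703 to 0.943, and Ctl-Exo 5 was below all NXT-Exo libraries under 3 scalings. The difference of miR-194-5p (0.07) turned to -0.046 without NXT-Exo replicate 4, and the libraries left out in turn gave -0.05 to 0.16. The cause was not tested. Of all miRNAs, 99 met the 2-fold rule, 4 did with a pseudocount of 10, and 30 did where a mean of 10 reads was required. The members past that rule were 0 in every setting. Both ratios to a 3p member have no value without an added count, since Ctl-Exo 5 had 0 reads. The comparisons of miR-192-5p and miR-215 are limited by the single Ctl-Exo library and not by depth, whereas depth also limits that of miR-194-5p (81 reads in Ctl-Exo 5) and those of the 3p members.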
